A study of Bombus terrestris audax with 20 samples.

Results

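Mid-instar queen-destined larvae (MQ) of the bumblebee Bombus terrestris audax were compared with mid-instar worker-destined larvae (MW) by mRNA-seq of whole bodies. The comparison took in every library of both phenotypes in the analysed table, which were MQ1, MQ2, MQ4, MW2 and MW3, or 5 of the 17 libraries. MQ larvae were females in the third instar from queenless colonies, that is, colonies whose queen had been taken away, and MW larvae were females of the same instar from queenright colonies, which kept their queen. Each library was made from several larvae of 1 colony, and no colony gave both MQ and MW larvae, so caste fate cannot be told apart from the absence of the queen or from the colony. The other 12 libraries were of early-instar (EQ and EW) and late-instar (LQ and LW) queen- and worker-destined larvae. They were drawn from the same set of queenless and queenright colonies, so libraries of different stages can share a colony. They enter here where the mid stage is set against them and in the estimate of spread. MQ3 and MW1 were not analysed here. According to the study, the authors excluded MQ3 for its few reads and MW1 because it resembled the other MW replicates poorly. The MW libraries kept were thus selected in part for agreeing with each other.

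Female bumblebee larvae can become queens or workers from the same genome. The third instar follows the period in which the presence of the colony queen sets the fate of a larva, and precedes the rapid growth of the last instar, in which queen-destined larvae feed longer and reach a much larger size. In insects, juvenile hormone from the corpora allata holds the larval state and acts through the transcription factor Kr-h1, while ecdysteroids drive moulting and metamorphosis. The fat body of the growing larva makes lipids and hexamerins, storage proteins that are released into the haemolymph and used during metamorphosis.

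The study also measured a set of genes by qRT-PCR, in separate larvae. The forward and reverse primers it designed for 4 of them are shown 5′ to 3′, since they mark transcripts whose mid-instar values are described below. No base is capitalised.
Plrp2-like, forward: accccatcgttgcataccaca
Plrp2-like, reverse: acgttcgcaaaccagcctca
P17/29C-like, forward: agccagaaaggaagcggatgc
P17/29C-like, reverse: tggctccgtcgattttcgagc
Hexamerin, forward: tgaccaagaaccaagtgaagt
Hexamerin, reverse: tggcatcccttcctttttacc
Kr-h1, forward: tgcaagtcctgtggcaaggg
Kr-h1, reverse: gggcaacctgatgcaatttgagg

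The values are normalised abundances, which the authors corrected for transcript length and quantile-normalised after resampling every library to the same number of reads. They carry no unit, and the number of reads behind a single value is not given in the table. Differences are given as log2 differences, MQ minus MW, of the abundance plus 20, which understates the change of weakly expressed features. They come from limma, a linear model fitted to 14817 features in 17 libraries, and a feature was called when its p adjusted over all features was below 0.05. With 3 libraries against 2, an exact permutation test of a single value cannot go below 0.1, so the calls rest on a spread estimated from all 6 phenotypes. That spread is between pools of larvae, each from 1 colony. The fit treated all libraries as independent, although pools of different stages can share a colony.

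An unannotated transcript on the unplaced scaffold NW_003568514.1 of build Bter_1.0, to which all positions here refer, had an abundance of 192525 in MQ1 and 226105 in MQ4 but of 3932 in MQ2, and of 1384 in MW2 and 1356 in MW3, and the same gap divided the libraries of the other stages. This gap was shared by 20 transcripts, of which 6 were among those furthest apart between MQ and MW and 0 were called by limma. MQ2 also had the highest summed abundance of the 5 transcripts with similarity to ribosomal RNA, with 24122, 98681 and 34152 in MQ1, MQ2 and MQ4, against 14856 and 18360 in MW2 and MW3. The part of either in the results was not tested. The side of this gap on which a library fell is called its library set below. Named genes whose calls were lost with it as a term in the model are given. This was not followed gene by gene for those chosen after their values were seen.

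At the mid stage limma called 700 features higher in MQ than in MW (4.72% of the 14817 tested) and 491 lower (3.31%). All 700 and all 491 had ranges that did not overlap, the rule by which the study defined differential expression, and which 3720 features (25.1%) met with MQ higher and 2572 (17.4%) with MQ lower. An offset fold change over 1, meaning that the nearest libraries of the castes differed more than 2-fold after 20 was added to both, was found in 58 features with MQ higher (0.391%) and in 94 with MQ lower (0.634%). The 2 directions differed in the size of the change. The median log2 difference was 0.58 among the features called higher and -1.03 among those called lower, beside 0.04 over all features, and a difference beyond 1 in size was seen in 106 (15.1%) of the higher and in 254 (51.7%) of the lower features.

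Hexamerin (LOC100650745, NC_015777.1:4103831-4107629), a storage protein of the larval haemolymph, had abundances of 7762, 6385 and 11398 in MQ1, MQ2 and MQ4, against 1201 and 1114 in MW2 and MW3. Every MQ library lay above both MW libraries, by 7.36-fold between the means (8515 ± 2590 in MQ, SD, n = 3, and 1157 ± 60.9 in MW, SD, n = 2). The log2 difference was 2.82 ± 0.31 (SE), with an adjusted p of 0.00043 by limma. In a fit to the 5 mid-instar libraries alone hexamerin was not called (adjusted p = 0.062 by limma). Of the 68 features with a readable name that were called higher, only 2 were called in that fit. Over the stages, mean hexamerin was 6102 in EQ and 4180 in EW, 8515 in MQ and 1157 in MW, and 3638 in LQ and 4012 in LW. The 2 MW libraries thus held less hexamerin than any library of the other 5 phenotypes. Allergen Cr-PI-like (LOC100646552), of the hexamerin family and known from cockroaches, had 3140, 3662 and 7002 in MQ, against 1976 and 1846 in MW, and was called higher (1.17 ± 0.32, adjusted p = 0.041). That call was lost without MQ4, without either MW library, under the replicate block and with the library set as a term, with differences of 0.82 to 1.22. CD109 antigen-like (LOC100647494), of the thioester protein family, was the third called member of the 5 storage and haemolymph proteins (0.33, not called without MQ1, MQ4 or either MW library, under the block or with the library set), and the other two members, melanotransferrin (LOC100644446, an iron-binding protein, 0.30, adjusted p = 0.080) and prohormone-2-like (0.20, adjusted p = 0.38), did not pass. None of the 5 was called lower, and 1 call, that of hexamerin, was left of the 3 without MQ4, without either MW library, under the block and with the library set.

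Kr-h1 (NC_015765.1:2490563-2492637), the zinc-finger factor through which juvenile hormone acts, had 684, 596 and 630 in MQ1, MQ2 and MQ4, against 203 and 200 in MW2 and MW3. The 3 MQ libraries stood close together and about 3.16-fold above the MW libraries, and the groups did not overlap (log2 difference 1.56 ± 0.16, adjusted p = 0.000378 by limma). Kr-h1 averaged 432 in EQ and 366 in EW, 636 in MQ and 202 in MW, and 275 in LQ and 185 in LW. Unannotated transcripts on both sides of it differed in the same way. The transcript at NC_015765.1:2486623-2487371 had 589, 538 and 548 in MQ, against 201 and 184 in MW (1.45 ± 0.25), and that at NC_015765.1:2495099-2495655 had 222, 167 and 184 in MQ, against 42.0 and 58.3 in MW (1.59 ± 0.31). The second of these had its best sequence similarity to a Krueppel homologue of Bombus impatiens, and all 3 lay within 9033 bp. The call of the first was lost without MW3 and that of the second without either MW library. Whether they belong to 1 transcript was not tested.

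The juvenile hormone and ecdysone list held 9 readable genes, of which 4 were called higher in MQ and 0 lower, where 4.72% of all features and 15.1% of the 451 features with a readable name were called higher. The median log2 difference was 0.45, beside 0.04 over all features, and the 4 calls became 2 without either MW library. Besides Kr-h1 these were a cytochrome P450, CYP303a1, which in Drosophila is needed in bristle sense organs, the broad-complex core protein, a factor induced by ecdysone that specifies the pupal programme, and the nuclear receptor named orphan steroid hormone receptor 2. CYP303a1 (LOC100642209, NC_015768.1:4742166-4745530) had 66.5, 128 and 75.7 in MQ, against 13.7 and 6.36 in MW. It was high in every MQ library and low in both MW libraries (1.84 ± 0.21, adjusted p = 0.000439 by limma), with means of 46.8 in EQ and 35.3 in EW and of 4.88 in LQ and 8.55 in LW. Its neighbour at NC_015768.1:4736229-4741671, which has no readable name, had 1273, 353 and 967 in MQ, against 114 and 68.8 in MW (2.84 ± 0.40).

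Smaller differences made up the rest of this list. Broad-complex (LOC100643256) had 68.4, 67.3 and 76.6 in MQ, against 47.9 and 40.4 in MW (0.50 ± 0.11, adjusted p = 0.019 by limma), and its call was lost without MQ4, without either MW library and under the replicate block. Orphan steroid hormone receptor 2 (LOC100642195) had 81.8, 80.5 and 71.6 in MQ, against 54.4 and 48.8 in MW (0.45 ± 0.10, adjusted p = 0.017), and its call was lost without either MW library. CYP307a1-like (LOC100642619), whose Drosophila counterpart acts early in ecdysone synthesis, had 35.7, 59.8 and 51.0 in MQ, against 27.7 and 32.0 in MW. These ranges did not overlap, but the difference did not pass the test (0.45, adjusted p = 0.093). The nuclear receptors HR38, E78C, HR4 and ERR1 were not called, with differences of 0.07 to 0.33.

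**Figure D1:**
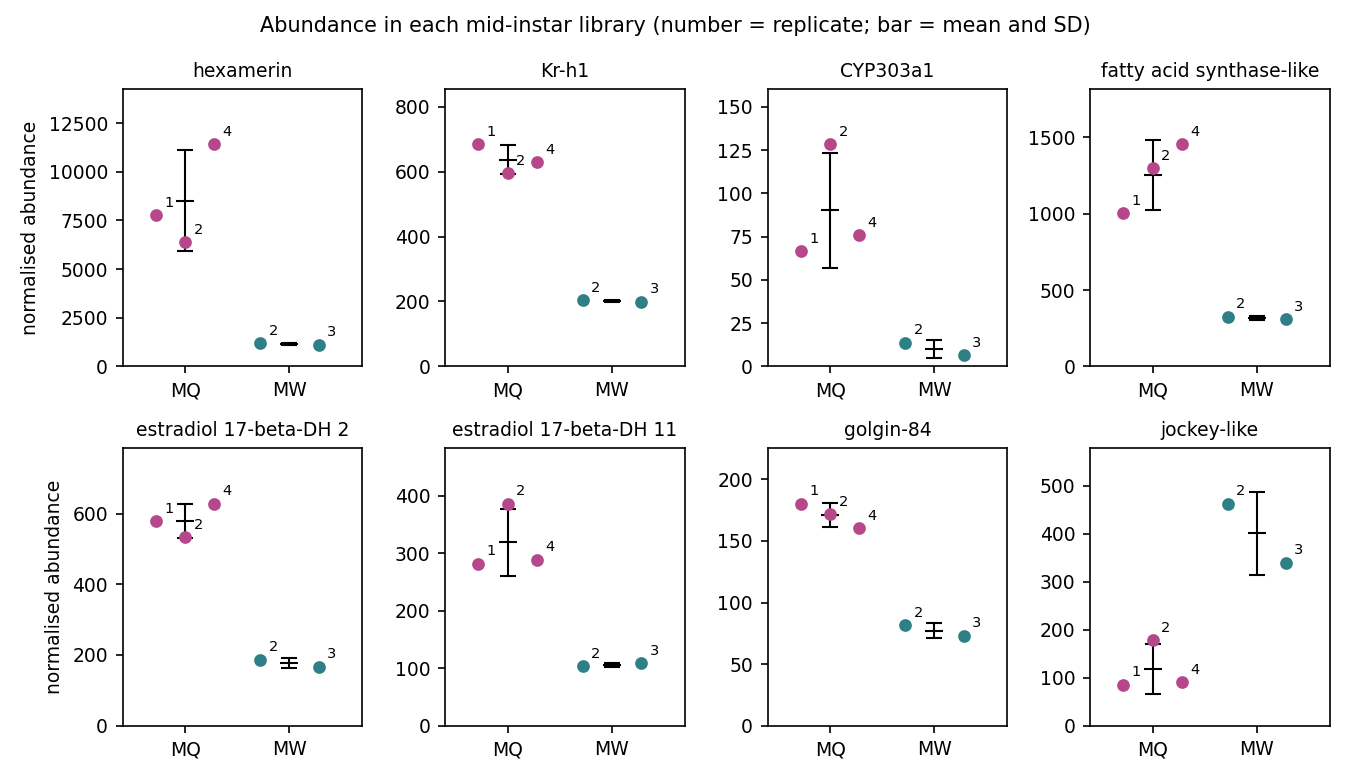
Normalised abundance (no unit, linear axes from 0) of 8 named genes in each mid-instar library, MQ left and MW right. Points are libraries with their replicate number and bars give the mean and SD (n = 3 for MQ, n = 2 for MW). In the first 7 panels every MQ point lies above both MW points, as for hexamerin with 6385 to 11398 in MQ and 1114 to 1201 in MW, and for the jockey-like gene the order is the reverse.

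Genes of lipid and steroid metabolism were called higher in 4 of 11 cases and lower in 0, where 4.72% of all features and 15.1% of those with a readable name were called higher. Ranges that did not overlap were found in 6 of the 11 with MQ higher and in 1 with MQ lower. The median log2 difference was 0.53, and 1 call was left without either MW library. Fatty acid synthase-like (LOC100652317, NW_003565702.1:4661-4969), of the enzyme family that builds long-chain fatty acids, had 1002, 1296 and 1453 in MQ, against 325 and 309 in MW. All MQ libraries were more than 3-fold above the MW libraries (1.90 ± 0.38, adjusted p = 0.012 by limma), although the call was lost without MW2 or without MW3, at 1.93 and 1.86. This feature spans 309 bp and covers at most a fragment of such a gene. Estradiol 17-beta-dehydrogenase 2 (LOC100645241, NC_015766.1:8097203-8103084), a short-chain dehydrogenase named after a vertebrate steroid enzyme, had 579, 533 and 628 in MQ, against 187 and 167 in MW (1.61 ± 0.15, adjusted p = 0.000378). It and Kr-h1 kept their calls in every alternative setting tried.

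Estradiol 17-beta-dehydrogenase 11 (LOC100652203, NC_015772.1:16038359-16041849), whose vertebrate counterpart sits on lipid droplets, had 282, 386 and 289 in MQ, against 103.7 and 108.2 in MW (1.41 ± 0.36, adjusted p = 0.033 by limma). Leaving out any of the 5 mid-instar libraries, or adding the replicate block, ended this call with differences of 1.28 to 1.66. The unannotated transcript next to it, at NC_015772.1:16036258-16037622, had 76.0, 85.8 and 105 in MQ, against 13.1 and 21.8 in MW (1.54 ± 0.16, adjusted p = 0.000378). Phosphatidylinositol 4-kinase alpha (LOC100645720), which makes a signalling lipid of the plasma membrane, was the fourth called member (0.53, not called without MQ1, MQ4 or either MW library or under the block). Fatty acyl-CoA reductase CG8306 (0.53, adjusted p = 0.34) and phospholipase A1 (0.57, adjusted p = 0.58) had differences as large that did not pass.

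The Golgi, coat and vesicle traffic list had the most calls of the lists of product names. Of its 19 readable members 10 were called higher in MQ and 0 lower. Of all features 4.72% were called higher, and of those with a readable name 15.1%. Non-overlapping ranges with MQ above MW were found in 17, beside 43.2% of the features with a readable name. The median log2 difference was 0.33, beside 0.11 over the features with a readable name. It was 0.29 over 6 housekeeping genes, of which 1 was called higher. Golgin-84 (LOC100648502, NC_015763.1:3185575-3192173), a tether of Golgi membranes, had 180, 172 and 160 in MQ, against 81.4 and 73.0 in MW, 2.21-fold between the means (0.97 ± 0.10, adjusted p = 0.000378 by limma). Sec24C (LOC100642413), which selects cargo for vesicles leaving the endoplasmic reticulum, had 1293, 1333 and 1398 in MQ, against 947 and 882 in MW (0.54 ± 0.09). Both groups were tight and did not overlap. Coatomer subunit beta (LOC105665983), a coat protein of vesicles within the Golgi, had 995, 950 and 1164 in MQ, against 662 and 740 in MW (0.55 ± 0.11), and bicaudal D (LOC100646788), an adaptor for dynein transport, had 200, 189 and 213 in MQ, against 131 and 137 in MW (0.51 ± 0.09). Sec24C was not called without MW3, bicaudal D without MW2 and coatomer subunit beta without MW2 or without MW3.

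The other 6 called members, chosen after their values were seen, were the Golgi phosphoprotein 3 homologue rotini (0.56), the vesicle fusion regulator sly1 (0.63), transmembrane 9 superfamily member 2-like (0.67), a brefeldin A-inhibited exchange factor for small GTPases (0.37), TBC1 domain family member 14-like (0.51) and golgin subfamily A member 4-like (0.21). The summed abundance of the 19 genes was 6831, 7073 and 7258 in MQ, against 5301 and 5275 in MW, without overlap. All 19 had also been listed with a positive early difference, as had 93.3% of the 451 features with a readable name, because names could be read only in a table of genes higher in EQ. Of those 451 features, 68 (15.1%) were called higher in MQ and 4 (0.887%) lower. With the library set as a term, 8 members of the Golgi list were called higher. The count for the Golgi list fell to 2 without MW2 and to 2 without MW3, was 7, 7 and 6 without MQ1, MQ2 and MQ4 in turn and 6 under the replicate block, and was never above 0 for lower calls.

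Genes of growth control were called higher in 2 of 12 cases (16.7%), close to the 15.1% of all features with a readable name, and the count was 1 without MQ4, 1 without MW2 and 0 without MW3. Myc (LOC100650167), a transcription factor that promotes ribosome production and cell growth, had 18.6, 28.1 and 28.4 in MQ, against 8.51 and 6.26 in MW (0.71 ± 0.11, adjusted p = 0.0036 by limma), and was not called without MW3. The translation initiation factor eIF4G2 (LOC100650115) had 674, 658 and 752 in MQ, against 514 and 526 in MW (0.40 ± 0.09, adjusted p = 0.019), and was not called without MQ4 or either MW library. Charybde-like (LOC100648738), whose Drosophila counterpart restrains TOR, and the coactivator YAP1 (LOC100651410) of the Hippo pathway had non-overlapping ranges but missed the threshold (0.91, adjusted p = 0.055, and 0.42, adjusted p = 0.064). Both insulin-like peptide receptors differed by 0.02 or less (adjusted p = 0.90 and 0.91), at abundances of 3.12 to 5.41 in all mid-instar libraries.

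The signalling list of Wnt, Notch, EGF and BMP genes held 16 members, of which 5 (31.3%) were called higher and 0 lower, at a median of 0.09, where 15.1% of the features with a readable name were called higher. The 5 calls became 0 without MW2, 0 without MW3, 2 under the replicate block and 3 with the library set. They were pygopus (LOC100651275, 0.46) and pygopus-like (LOC105666783, 0.61), coactivators of Wnt target genes, the MAP kinase inhibitor spred1 (LOC100648084, 0.31), and the ubiquitin ligases SMURF2 (LOC100649221, 0.36), which acts on BMP signalling, and beta-TrCP (LOC100647997, 0.37, chosen after its values were seen), which acts on beta-catenin. Pygopus-like had 50.9, 38.5 and 47.9 in MQ, against 22.8 and 22.9 in MW. SMURF2 was not called without MQ1 or MQ4, under the block or with the library set. Among 25 transcription factors of wings and body pattern 2 (8.00%) were called higher, distal antenna-like (LOC100642203, 0.53) and abrupt (LOC100644484, 0.25), and the median of the list was 0.01. Distal antenna-like was not called without MW3 or under the block, and abrupt was not called without MQ1, MQ4 or either MW library, under the block or with the library set. Vestigial, the selector gene of the wing, had 0.348 to 0.492 in MQ and 0.352 to 0.390 in MW, far below the offset of 20.

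Other named genes were called higher in MQ. Importin subunit beta-1 (LOC100642654), a carrier of proteins into the nucleus, had 301, 245 and 446 in MQ, against 165 and 165 in MW (0.88 ± 0.18). Vigilin (LOC100650030), an RNA-binding protein, had 1149, 980 and 1284 in MQ, against 596 and 719 in MW (0.77 ± 0.16). MOXD1 homolog 1 (LOC100645538), of the copper monooxygenase family, had 119, 172 and 184 in MQ, against 66.3 and 58.4 in MW (1.10 ± 0.16). These groups did not overlap. A sodium- and chloride-dependent glycine transporter 1-like gene (LOC100642661, 0.80), cell wall protein DAN4-like (LOC100646975, 0.87) and the repressor tramtrack, beta isoform-like (LOC105666862, 0.81), were also higher, all with adjusted p between 0.00233 and 0.045 by limma. Importin subunit beta-1 was not called without either MW library or under the block, vigilin without MQ4 or either MW library, and tramtrack without MQ1, MQ4 or either MW library, under the block or with the library set.

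Skeletor (LOC100644782), known in Drosophila as a protein of the spindle matrix, was the only called member of 9 cuticle, chitin and tanning genes (797, 581 and 607 in MQ, against 293 and 207 in MW, 1.34 ± 0.30, adjusted p = 0.018 by limma). It overlaps LOC105666534 on the sequence, which had 673, 493 and 543 in MQ, against 213 and 160 in MW, and the reads of both cannot be told apart without strand. The call of Skeletor was lost without MQ1, without either MW library and under the replicate block.

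**Figure D2:**
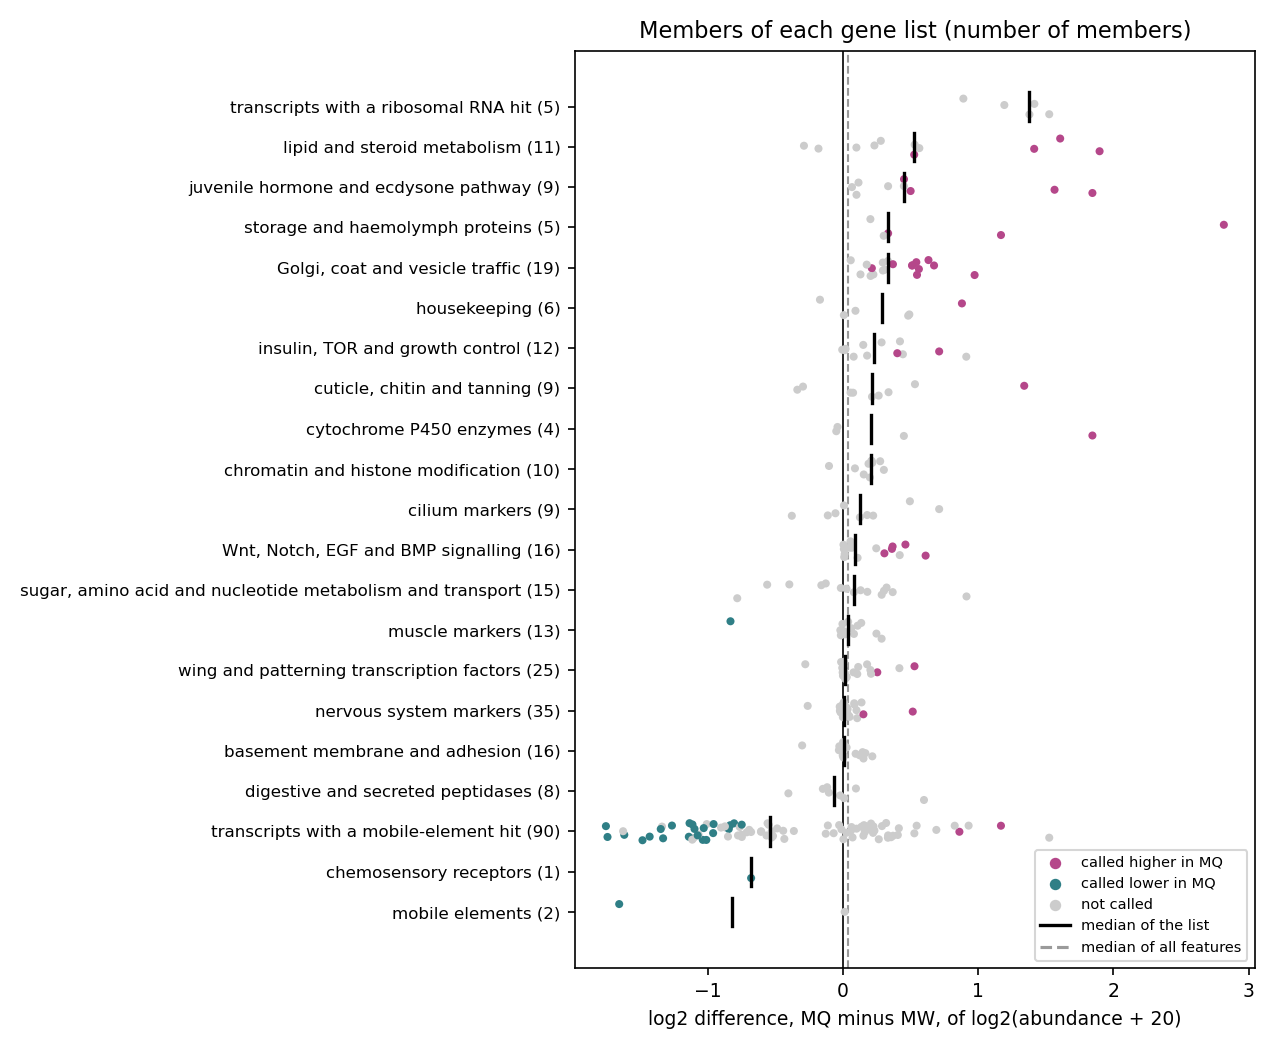
Log2 difference, MQ minus MW, of log2(abundance + 20) for each member of 21 gene lists, 1 point a feature, coloured where limma called it, with the median of each list and of all features (0.04). The Golgi list lies right of 0 with 10 of 19 members called higher in MQ, and the transcripts with a mobile-element hit lie mostly left of it with 22 of 90 called lower.

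Only 4 features with a readable name were called lower in MQ. The jockey-like gene (LOC105666749, NW_003565454.1:69701-70693), a reverse transcriptase of a mobile element, had 85.2, 178 and 91.1 in MQ, against 462 and 339 in MW. MW was 3.39-fold above MQ between the means and the groups did not overlap (-1.65 ± 0.31, adjusted p = 0.0095 by limma, not called without MW2). Popeye domain-containing protein 3-like (LOC100651966), a membrane protein of muscle, had 281, 505 and 311 in MQ, against 679 and 612 in MW (-0.83 ± 0.24, adjusted p = 0.049 by limma). That call was lost without MQ1, MQ4 or either MW library, at an offset of 1, under the replicate block and with the library set, with adjusted p up to 0.262. Odorant receptor 4-like (LOC105666960), a chemosensory receptor, had 66.3, 80.9 and 71.0 in MQ, against 139 and 118 in MW (-0.68 ± 0.13, adjusted p = 0.0082), and was not called without MW2. Myosin-G heavy chain (LOC100643911) differed least of these (108, 114 and 103 in MQ, against 145 and 135 in MW, -0.32 ± 0.08), and its call was lost without MQ1, MQ4 or either MW library, under the block and with the library set.

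Markers of the tissues in a whole larva were set beside these genes. Of 13 muscle markers 0 were called higher and 1 lower, namely popeye, and of 35 nervous system markers 2 were called higher, the adhesion molecule neuroglian (LOC100651562, 0.52) and metabotropic glutamate receptor 8-like (LOC100642618, 0.15). Both calls were lost without MW2, without MW3 and under the block, and that of the receptor also without MQ4 and with the library set. Their summed abundances overlapped between castes, with 3453 to 4778 in MQ and 3355 to 4141 in MW for muscle and 993 to 1723 in MQ and 1040 to 1603 in MW for the nervous system. The 8 digestive and secreted peptidases, markers of the gut, had 45756, 123640 and 49568 in MQ, against 49538 and 81665 in MW, and none was called. None of the members of these 3 lists was at 0 in a mid-instar library. The sums of the 5 storage and haemolymph proteins, which include hexamerin, did not overlap (10538 to 18857 in MQ, 3344 to 3564 in MW). Nor did those of the 9 cuticle, chitin and tanning genes (2130 to 2793 in MQ, 1805 to 2119 in MW), though only narrowly. These sums included Skeletor, the only called member, whose own gap between the castes was wider than that of the sums. The list as a whole without Skeletor was not summed. The sums of the 9 cilium markers overlapped (395 to 564 in MQ, 340 to 457 in MW). Lists of basement membrane (16 genes), sugar and amino acid metabolism (15), chromatin (10) and cilium (9) had 0 calls in either direction. Of the 10 chromatin genes, 6 had non-overlapping ranges with MQ higher, beside 43.2% of the features with a readable name and 25.1% of all. In whole larvae a lower abundance can come from fewer cells of a type or from less RNA per cell, which cannot be told apart here.

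The study names a pancreatic lipase-related gene, Plrp2-like, for the largest offset fold change in MQ. The feature with the largest such value here, at NC_015771.1:3137226-3141484, was taken to be that gene, an identity inferred from its rank and not matched by accession. It had 12346, 22061 and 18556 in MQ1, MQ2 and MQ4, against 202 and 27.8 in MW2 and MW3. MQ was 153-fold above MW between the means (7.38 ± 0.96, adjusted p = 0.0012 by limma), the nearest libraries gave an offset fold change of 5.80, and the difference was 6.27 without MW3 and 8.49 without MW2. In the fit to the 5 mid-instar libraries alone it was not called. It averaged 1780 in EQ and 465 in EW, and 4638 in LQ and 146 in LW. The late difference was called too (4.97 ± 0.86, adjusted p = 0.0064), whereas the early was not (1.94 ± 0.86, adjusted p = 0.88).

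The gene lies within a longer feature, NC_015771.1:3045554-3144288, which had 566, 973 and 813 in MQ, against 38.0 and 38.4 in MW (3.76 ± 0.43). Abundance multiplied by span gave for the shorter feature 94.0, 97.8 and 98.4% of the longer in MQ, against 23.0 and 3.12% in MW, and the 2 overlapping features are described as 1 locus. These products are not exact shares, since in the other nested pair with offset fold changes over 1, on NW_003566126.1, they came to 90.4, 99.0 and 98.2% in MQ, against 138 and 178% in MW. An unannotated transcript downstream, at NC_015771.1:3152030-3152362, had 321.4, 198.7 and 303.3 in MQ, against 2.38 and 0 in MW (3.77 ± 0.36, adjusted p = 0.000378 by limma).

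P17/29C-like is the gene the study names for the largest offset fold change in MW. The feature with the largest value in that direction here, at NC_015772.1:3820761-3823080, was taken to be P17/29C-like, again by rank and not by accession. It had 32.6, 25.6 and 188 in MQ1, MQ2 and MQ4, against 3694 and 3162 in MW2 and MW3. MW was 41.8-fold above MQ between the means (-5.44 ± 0.67, adjusted p = 0.0008 by limma). MQ4 stood above the other MQ libraries, and leaving it out moved the difference to -6.13. P17/29C-like was not called in the fit to the 5 mid-instar libraries alone. Mean abundance was 24.7 in EQ and 28.2 in EW, 82.0 in MQ and 3428 in MW, and 19568 in LQ and 27013 in LW. The caste differences at the early and late stages did not pass the test (-0.17, adjusted p = 0.99, and -0.31, adjusted p = 0.81), and at the mid stage, on the log2 scale, MW lay nearer to the late level and MQ nearer to the early level.

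Other features without a readable name followed. The feature at NC_015767.1:2698404-2700314 had 1884, 1028 and 2115 in MQ, against 79.5 and 61.3 in MW (4.17 ± 0.46, adjusted p = 0.00043 by limma), with means of 773 in EQ and 716 in EW, and 77.1 in LQ and 61.9 in LW. It kept its call in all settings. In the other direction, the feature at NC_015772.1:3712247-3716247 had 151, 147 and 45.1 in MQ, against 922 and 2269 in MW (-3.58 ± 0.49), and averaged 673 in EQ and 564 in EW, and 22.9 in LQ and 17.3 in LW. The feature at NC_015770.1:14064922-14069970 had 181, 131 and 57.7 in MQ, against 2377 and 1169 in MW (-3.67 ± 0.39), and averaged 1190 in EQ and 1328 in EW, and 1741 in LQ and 3833 in LW. Thus of these 3 the first was low in MW as it was in both late phenotypes, the second was high in MW as in both early phenotypes, and the third was low in MQ alone.

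**Figure D3:**
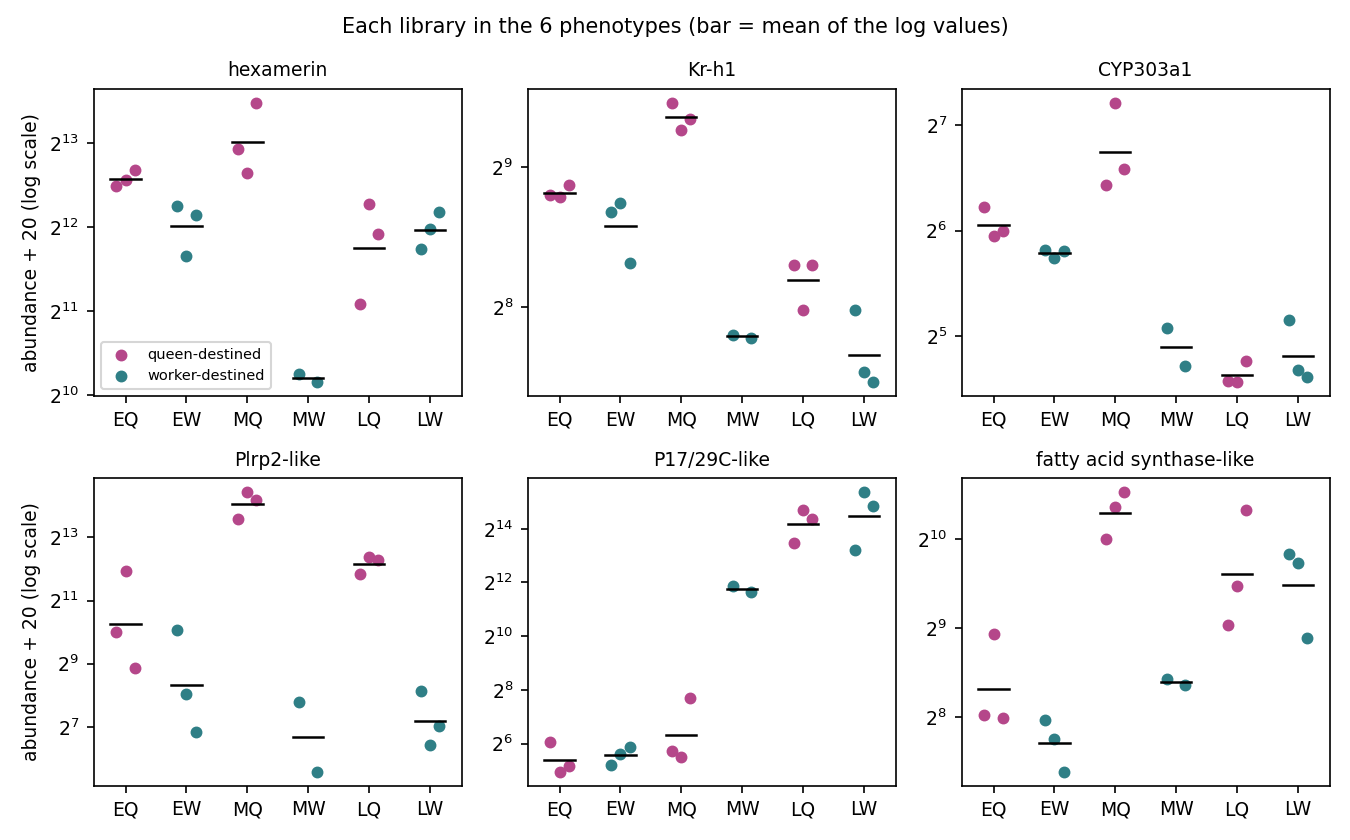
Abundance plus 20 on a log axis for 6 genes in each library of the 6 phenotypes, from early to late instar with the queen-destined phenotype left of the worker-destined, and bars for the mean of the log values. MW stands apart from the other 5 phenotypes for hexamerin (1114 to 1201), whereas P17/29C-like is near 3428 in MW and between 25.6 and 188 in MQ, with both late phenotypes higher still.

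Positions of the features with an offset fold change over 1 are given as a description. The share with such a neighbour among other features was not computed. Of the 58 with MQ higher, 24 (41.4%) lay within 100 kb of another such feature, and of the 94 with MQ lower, 37 (39.4%) did. They formed 23 runs, of which 9 held only features higher in MQ, 13 only features lower in MQ and 1 held both. Since features were named in the table by position, overlapping models and fragments of 1 transcript can stand in the same run.

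The longest run with MQ higher held 5 features between 10150985 and 10258688 on NC_015764.1. That at NC_015764.1:10165373-10181599 had 203, 198 and 271 in MQ, against 49.9 and 24.5 in MW (2.12 ± 0.32), and the 5 log2 differences were 1.67 to 2.34. Its means were 28.4 in EQ and 51.7 in EW, and 194 in LQ and 17.9 in LW (2.57 ± 0.29 at the late stage, adjusted p = 0.00033 by limma). Several of the 5 had nearly the same values in each library, and reads that fit at several places were kept by the authors, so they may not be separate measurements.

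A run of 3 on NC_015773.1, between 10231842 and 10252788, was lower in MQ. Its first feature had 47.9, 70.5 and 83.5 in MQ, against 355 and 270 in MW (-1.94 ± 0.27), with means of 7.68 in EQ and 25.4 in EW, and 556 in LQ and 446 in LW. A run of 4 on NW_003566591.1, between 142411 and 183051, was lower in MQ by 2.09 to 3.17 on the log2 scale. Its feature at 148357 to 151275 had 3871, 1396 and 196 in MQ, against 9570 and 9445 in MW, with means of 13722 in EQ and 15870 in EW, and 515 in LQ and 2363 in LW. This feature was not called without MQ4 or either MW library, under the block or with the library set. MQ values spread widely in it and MW values did not. The run with both directions, on NC_015771.1 between 1512923 and 1528641, had 2 features lower in MQ, by 2.95 and 3.80, beside another with 5090, 6269 and 6843 in MQ, against 1716 and 2189 in MW, which did not pass the test (1.63, adjusted p = 0.055).

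Annotated and unannotated features were called in different proportions. Unannotated transcripts, assembled by the authors from reads outside annotated genes, made up 120 (17.1%) of the features called higher in MQ and 274 (55.8%) of those called lower, beside 32.5% of all features. On unplaced scaffolds 187 of 2464 unannotated transcripts (7.59%) were called lower and 56 (2.27%) higher, whereas of 8760 annotated genes on placed sequences 174 (1.99%) were called lower and 511 (5.83%) higher. The median log2 difference was -0.14 in the first of these classes and 0.07 in the second. Of the 94 features with an offset fold change over 1 and MQ lower, 44 (46.8%) were unannotated transcripts on unplaced scaffolds, as were 10 (17.2%) of the 58 with MQ higher.

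The extreme cases were present in MW and close to absent from MQ. The unannotated transcript at NW_003566109.1:182735-182941 had 3.99, 0 and 0 in MQ, against 446 and 245 in MW. Likewise, that at NW_003566532.1:6054-6308 had 7.35, 2.68 and 3.51 in MQ, against 329 and 237 in MW. That at NW_003566082.1:14813-15171 had 1.83, 1.75 and 0 in MQ, against 231 and 155 in MW. In each case the MW libraries were high, all MQ libraries were low and the groups did not overlap (-4.05, -3.61 and -3.31, adjusted p = 0.0018, 0.0048 and 0.000442 by limma), and the second was not called without MW2.

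**Figure D4:**
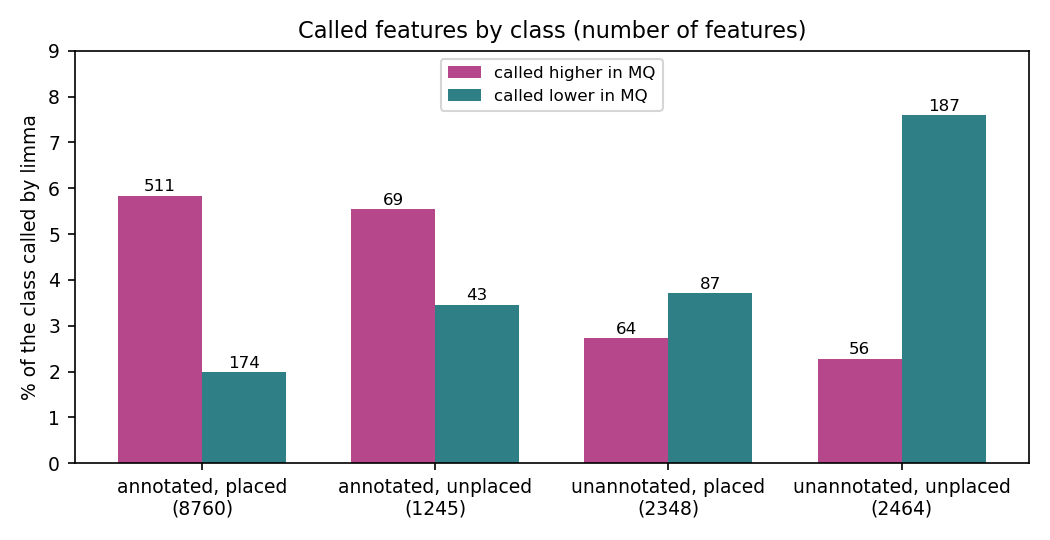
Share of the features in each class that limma called higher or lower in MQ (percent of the class, bars from 0, with the number called above each bar and the size of the class below it). Lower calls reach 7.59% of unannotated transcripts on unplaced scaffolds and 1.99% of annotated genes on placed sequences.

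Unannotated transcripts with similarity to a mobile element, such as a transposase or a reverse transcriptase, numbered 90 among those with a readable similarity. Of these, 22 (24.4%) were called lower in MQ and 2 (2.22%) higher, beside 3.31% and 4.72% of all features. Of unannotated transcripts on unplaced scaffolds 7.59% were called lower and 2.27% higher. Reads that fit at several places were kept by the authors, so the 90 may not be separate measurements. Non-overlapping ranges with MQ lower were found in 48 (53.3%), beside 17.4% of all features and 33.2% of unannotated transcripts on unplaced scaffolds. Their median log2 difference was -0.54, although all 90 had a positive early difference, through which they came to be readable. The transcript at NW_003566484.1:500-835, with a reverse transcriptase hit, had 255, 282 and 259 in MQ, against 742 and 594 in MW (-1.26 ± 0.17, adjusted p = 0.0015 by limma). The MQ libraries agreed closely and lay below both MW libraries. An exception was a transcript similar to a Copia element, at NW_003570046.1:631-1124, with 67.9, 113 and 81.8 in MQ, against 29.9 and 24.5 in MW (1.17 ± 0.20, not called without MW3). The count of 22 lower calls became 6 without MQ1, 37 without MQ2, 4 without MQ4, 1 without MW2, 2 without MW3, 7 under the replicate block and 9 with the library set as a term, while the median stayed between -0.66 and -0.42. The summed abundance of the 90 was 43776, 84419 and 46862 in MQ, against 82408 and 76729 in MW, so that the sums overlapped through MQ2.

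Whether the caste difference was particular to the mid stage was tested by the difference between stages in the same fit. The mid-instar difference was more positive than the late-instar in 155 features (1.05%) and more negative in 211 (1.42%), of which 97 and 99 were among those called higher and lower at the mid stage. Against the early stage it was more positive in 34 features (0.229%) and more negative in 27 (0.182%), and all 34 and all 27 were called at the mid stage. For hexamerin the caste difference was 0.56 at the early, 2.82 at the mid and -0.21 at the late stage, and the mid value differed from the early (adjusted p = 0.036) and from the late (adjusted p = 0.0043). Kr-h1 had 0.24, 1.56 and 0.54 at the early, mid and late stages, and CYP303a1 had 0.27, 1.84 and -0.18, with the mid value above both others in each (adjusted p = 0.0043 to 0.030 by limma). Plrp2-like, with 1.94, 7.38 and 4.97, did not pass either test (adjusted p = 0.085 against early and 0.35 against late). With the library set as a term, 0 features passed in the comparison with the early stage.

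The called features were also set against the change between the early and the late stage, which used no mid-instar library in its means. Over all features 4888 (33.0%) were higher at the late than at the early stage and 4337 (29.3%) were lower. Of the 700 features called higher in MQ, 366 (52.3%) were higher and 146 (20.9%) lower at the late stage. Of the 491 called lower in MQ, 162 (33.0%) were higher and 175 (35.6%) lower at the late stage. Allergen Cr-PI-like and fatty acid synthase-like were among those higher late (8.38 and 1.54), whereas Kr-h1, CYP303a1 and golgin-84 were lower late (-0.77, -1.20 and -0.35). These shares depended on single libraries. Of the features called higher and of those called lower in MQ, 35.5% and 45.2% were higher late when MW2 was left out, so the order of the shares turned round, and they were 44.6% and 43.0% without MW3 and 44.8% and 43.7% without MQ4.

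How many features were called depended on single mid-instar libraries. Leaving out MW3 left 74 features higher and 100 lower in MQ, and leaving out MW2 left 121 and 93, in fits where the lone MW library was assumed to vary like the others. Of the 74, all 74 were among the 700, and of the 121, 117 were. Without MQ4 the counts were 241 and 183, without MQ1 405 and 306, and without MQ2 1061 and 711. With the 5 mid-instar libraries alone, 7 were higher and 16 lower. With the library set as a term, 385 were higher and 286 lower, of which 356 and 256 were also called without it.

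**Figure D5:**
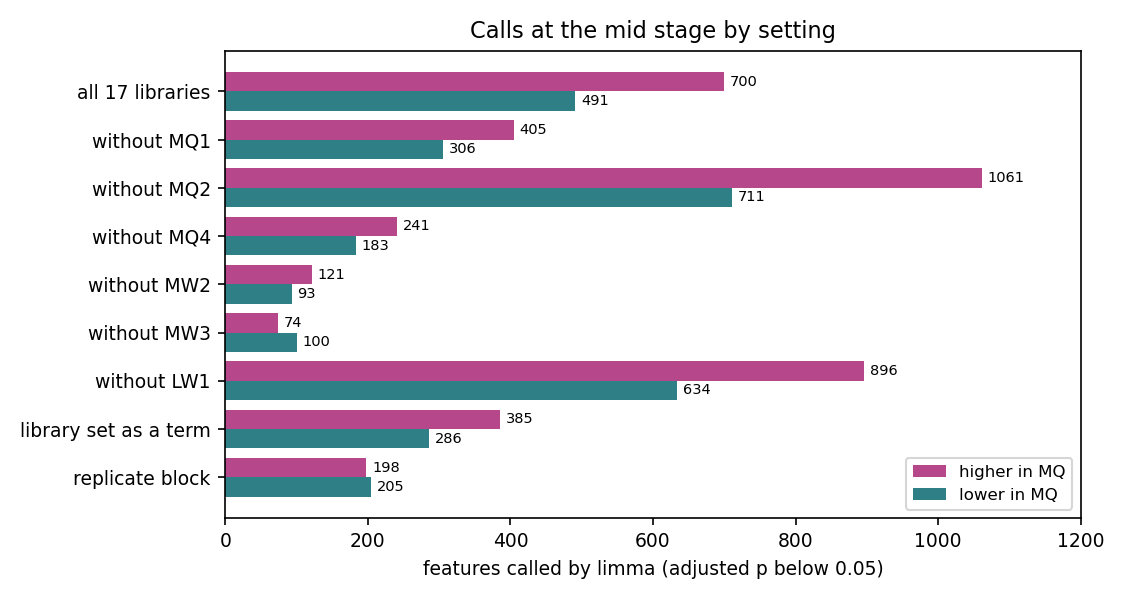
Number of features called by limma higher or lower in MQ (bars from 0) with all 17 libraries, with single libraries left out, with the library set as a term and with the replicate number as a block. The counts run from 74 to 1061 for higher and from 93 to 711 for lower calls.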

How the data were processed

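Whole female larvae were pooled by colony, instar and caste, and their total RNA was sequenced as mRNA-seq libraries. According to the methods of the study, the authors filtered reads by quality, resampled every library to the size of the smallest, aligned reads with PatMaN (at most 1 mismatch) to Bter_1.0, kept reads that fit at several places, assembled unannotated transcripts from reads outside annotated genes, removed short and weakly expressed features, scaled counts to length and quantile-normalised them. The deposited values are therefore a length-corrected, quantile-normalised signal, not counts. All libraries thus entered with equally many reads, but the reads behind each value are not given in the table, so no counting error was computed.

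Calculations used R 4.3.3 with limma 3.58.1 and Python 3.11.15. The model in limma took log2(signal + 20) of 14817 features in 17 libraries, the 6 phenotypes each entering as 1 mean, a prior that follows intensity, and two-sided tests with Benjamini-Hochberg adjustment over all features. On simulated data of 14817 features, of which 200 were changed, changes of 1 and of 2 log2 units between MQ and MW were recovered in 69% and 98% of cases. There were 7 false calls among the unchanged features. The simulated libraries were independent, with no shared colony or library set, so these figures do not give the error rate of the real calls. Alternatives were offsets of 1 and 50, a minimum mean of 100, annotated features only, other thresholds, no trend, the mid-instar libraries alone, library weights, other scalings, colony or replicate number as a block, and leaving out libraries. Colony was inferred from caste and replicate number, not read from a label, so equal numbers need not mean 1 colony. Leaving out LW1 and the library set (high or low abundance of the transcript on NW_003568514.1) were added after seeing the data.

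Names came from the readable part of a supplementary gene table, which covered 1054 features and gave 451 informative product names, nearly all of genes higher in EQ, and most features stay unnamed. Symbols were looked up in the RefSeq table of another assembly (560 of 616 found), without its coordinates. Named were features with an offset fold change over 1, the 15 largest called differences in each direction, hexamerin and Kr-h1, up to 4 members per list by p, the 8 unnamed features with the largest offset fold change in each direction and runs of at least 3. Members, lists and this rule were chosen with earlier results of these data known.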

Additional observations from a re-analysis of the deposited data

Results flagged for a closer look

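Among the genes and features named in the report, 27 values were picked out because the caste difference (MQ minus MW, log2) departed from that at the late stage, and 22 because it departed from that at the early stage, in both cases by the limma test of the difference itself (adjusted p of 0.0043 to 0.048 against late and of 0.020 to 0.045 against early). Each value below is the mid-instar difference less that of the other stage, and none of the 22 passed against the early stage once the library set was a term.

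Of the genes higher in MQ, hexamerin exceeded its late difference by 3.03 and its early by 2.25, Kr-h1 by 1.03 and 1.33, CYP303a1 by 2.03 and 1.58, estradiol 17-beta-dehydrogenase 2 by 1.40 and 1.28, and golgin-84 by 1.03 and 0.79. Against the late stage alone, the excess was 1.40 for MOXD1 homolog 1, 1.02 for importin subunit beta-1, 0.56 for Sec24C, 0.69 for coatomer subunit beta, 0.83 for pygopus-like, 0.66 for distal antenna-like and 0.56 for melanotransferrin, of which the last was not called at the mid stage itself.

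Of the genes lower in MQ, P17/29C-like departed by -5.13 from late and -5.27 from early, the jockey-like gene by -2.17 from early, and popeye domain-containing protein 3-like by -1.35 from late. Cytochrome P450 6k1-like (LOC100650427) departed by -2.55 from late, although it had 1.97, 0 and 0 in MQ, against 2.49 and 0 in MW, so the value comes from the late stage. Transcripts with a mobile-element hit did so at NW_003566484.1:500-835 (-1.01 from late and -1.54 from early) and at NW_003568413.1:1-221 (-1.38 from early). These transcripts and the jockey-like gene became readable through a positive early difference, so their values against the early stage include the measure that selected them and are given as a description only.

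Unnamed features higher in MQ did so at NC_015767.1:2698404-2700314 (3.80 from late, 4.07 from early), NC_015772.1:14946690-14950657 (2.16 and 2.24) and NC_015770.1:3659628-3660348 (2.11 and 2.35), and against early alone at the 2 features beside Plrp2-like (3.07 for the longer gene and 3.01 for the downstream transcript) and at 3 features of the run on NC_015764.1 (2.63, 2.73 and 2.33).

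Unnamed features lower in MQ did so from late and early at NC_015770.1:14064922-14069970 (-2.54 and -3.50), NC_015772.1:3712247-3716247 (-3.79 and -3.98), NC_015771.1:1512923-1524641 (-2.86 and -3.28) and NW_003566392.1:117210-118602 (-0.88 and -1.28). NW_003566082.1:14813-15171 departed from early alone (-3.07), and NW_003566567.1:1-207 (-2.32) and the 3 features of the run on NC_015773.1 (-2.26, -2.45 and -2.35) from late alone.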

How the results depend on the processing

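No paired analysis was possible because MQ and MW share only the replicate number 2 and no colony; with the replicate number as a block over all libraries the calls were 198 higher and 205 lower, 322 for mid against late and 5 for mid against early. The limits are few libraries, no read numbers behind single values, names for few features and calls that rest on a spread shared over stages. With the 5 mid-instar libraries alone 7 features were higher and 16 lower, and with library weights 1623 and 1070. Leaving out 1 mid-instar library gave 74 to 1061 higher, 93 to 711 lower, 60 to 1147 for mid against late and 7 to 653 for mid against early. With the library set as a term these were 385, 286, 279 and 0, and at an adjusted p of 0.01 they were 134, 111, 31 and 0. Annotated features alone gave 256 lower calls. For mid against late, a minimum mean of 100 gave 187, weights 1813 and colony as a block 713, and for mid against early an offset of 1 gave 20, a minimum mean of 100 gave 30, weights 2140, colony 175 and leaving out LW1 149.

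Non-overlapping ranges numbered 2259 (higher) and 1597 (lower) at a minimum mean of 100, 1224 (lower) for annotated features, and 4163 to 5422 and 3177 to 3943 with 1 library left out. Offset fold changes passed in 122 and 152 features at an offset of 1, in 248 and 398 at a threshold of 0.5, in 8 and 13 at 2, in 45 annotated features (lower), and in 64 to 114 and 105 to 283 with 1 library left out. Of the features called higher, the percentage higher late was 57.4 for annotated features and 35.5 to 49.6 with 1 library left out; of those called lower it was 37.5 at a minimum mean of 100 and 28.3 to 45.2. Why the counts moved was not tested, except that fewer features or libraries entered some of these fits.

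Of the values of 131 named features under the alternatives, 1965 kept direction and call, 259 lost a call, 34 gained one and 15 turned, all of the last in features not called. The turned differences were 0.116 (block), 0.0290 (without MQ1) and 0.0455 (library set) for LOC100651255, 0.0438 (block), 0.0452 (without MW2) and 0.238 (library set) for LOC100650427, 0.0055 (without MW3) for LOC100650130, 0.0540 (without MW3) for LOC100642906, 0.0372 (block), 0.0420 (without MQ4) and 0.0167 (without MW2) for LOC100631080, and -0.0226 (weights), -0.0595 (without MQ2), -0.0240 (without MQ4) and -0.108 (without MW3) for LOC105666616. Leaving out 1 library gave -0.152 to 0.0290, -0.124 to 0.0452, -0.894 to 0.0055, -0.286 to 0.0540, -0.403 to 0.0420 and -0.108 to 0.136 for the 6 in that order.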

Other observations

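Further named genes were called higher in MQ outside the gene lists, all chosen after their values were seen and with no test of them as groups. Several bind or remodel RNA. La-related protein 4, which binds messenger RNA, had 361, 353 and 397 in MQ, against 204 and 221 in MW (0.75), ras GTPase-activating protein-binding protein 2, a stress granule protein, had 533, 459 and 592 in MQ, against 305 and 336 in MW (0.68), and the helicase Pl10 had 530, 553 and 600 in MQ, against 406 and 434 in MW (0.40). Others belong to kinase signalling. The type II regulatory subunit of cAMP-dependent protein kinase had 57.1, 53.1 and 57.7 in MQ, against 24.9 and 25.1 in MW (0.75), and serine/threonine-protein kinase D3 had 90.5, 63.5 and 90.3 in MQ, against 37.6 and 46.9 in MW (0.70). The ligand ephrin-B2 (0.29) and the cell-cycle gene fizzy-related (0.46) were higher as well. In each of these genes the ranges did not overlap, as in every called feature (adjusted p of 0.000439 to 0.035 by limma). Their calls were not followed singly under the alternatives. Of all 68 features with a readable name called higher, 32 stayed called without MQ4, 27 under the replicate block and 48 with the library set.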
